A study of Mus musculus with 246 samples.

Results

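The medial prefrontal cortex (mPFC) of control mice labelled NoInteraction was compared with 5 other brain regions of the same animals. Its members are 7 of the 246 RNA-seq libraries of the series, namely the mPFC libraries (infralimbic and prelimbic cortex) of the group Ctrl_Vehicle_NoInteraction. They were set against the 35 libraries of those 7 animals from ACC (the anterior cingulate), vHipp (the ventral part of the hippocampus), DMT (dorsomedial thalamus), BLA (the basolateral nuclei of the amygdala) and Nacc (the nucleus accumbens, given as shell in the study's methods and as core in another place). All were adult male CD1 mice, by label from standard-reared litters whose dams were injected with the empty lipid gel used as vehicle. The label NoInteraction sets them apart from mice labelled SocialInteraction, and the library titles do not say what the interaction was. The study's methods place brain collection after behavioural recording under basal conditions. The animals carry the numbers 1, 9, 33, 41, 65, 81 and 97. Each library came from punches of both hemispheres that were pooled and sequenced as poly-A RNA. A punch holds every cell inside its circle, so a difference in a bulk library can be a difference in the number of cells of a type or in RNA per cell, and these cannot be told apart here.

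The mPFC is neocortex on the medial wall of the frontal lobe. Its sheets of glutamatergic pyramidal neurons are sorted by layer and by target, with local inhibitory neurons among them, and in rodents it has no clear granular layer 4. It borders the olfactory bulb and the anterior olfactory area in front, the accumbens and striatum behind, the claustrum at the side, the forceps of the corpus callosum below the grey matter and the meninges at the midline. ACC is the neighbouring medial cortex, and is therefore the closest of the 5 comparisons. By the study's coordinates its punches began at the same front level as those of mPFC and ran further back.

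Libraries held between 26641518 and 39360386 estimated counts in mPFC and between 21645573 and 37029433 in the other regions. Levels below are CPM (counts scaled to library size) after scaling with edgeR, and differences are log2 differences with their standard errors (SE) from edgeR's quasi-likelihood test on 16066 protein-coding genes, with animal number as a block and Benjamini-Hochberg adjustment. Mitochondrial protein-coding genes took 4.62% to 5.83% of the mPFC total and ribosomal protein genes 0.869% to 0.97%, inside the span of the other regions. The 7 mPFC libraries carry name numbers from another range than the 35 others, so whatever this numbering stands for cannot be told apart from the region. The Nacc libraries labelled animals 1 and 81 matched another animal in genes that vary between animals. The first matched animal 89, labelled Ctrl_Vehicle_SocialInteraction (correlation 0.949, against 0.246 with animal 1). The second matched animal 37 (0.924, against 0.136 with animal 81), labelled ELA_Vehicle_NoInteraction, a group with early life adversity. For Nacc, the same mouse therefore means the same number in the labels. Leaving the Nacc libraries labelled 1 and 81 out moved no count below by more than 1.5 times.

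Genes of cortical neurons were high in mPFC. All 8 of 8 genes of cortical excitatory neurons were higher in mPFC than in the mean of the 5 other regions, where 26.6% of all tested genes were higher and 26.6% lower (4277 and 4269 genes). The median log2 difference of this list was 1.85 against -0.01 over all tested genes. These genes are shared with hippocampal pyramidal neurons, and their summed level was 5142 to 6874 CPM in mPFC and 7267 to 8828 CPM in vHipp. Camk2a, a kinase of excitatory synapses, and Neurod2, a factor of neuronal differentiation, were lower in mPFC than in vHipp (-0.67, SE 0.09, and -1.10, SE 0.33). Fezf2, the selector gene of subcerebral projection neurons of layer 5, read 42.1, 66.1, 76.4, 28.4, 52.2, 58.8 and 52.4 CPM in the mPFC of animals 1, 9, 33, 41, 65, 81 and 97. ACC read 54.2 to 71.4 CPM, so the groups overlapped. The difference was 3.04 (SE 0.18, adjusted p = 1.77e-15, edgeR) from the mean of the others and -0.29 (SE 0.21, adjusted p = 0.437) from ACC. Vip and Lamp5, which mark classes of cortical interneurons, were higher by 2.99 (SE 0.22) and 2.47 (SE 0.10). Of 13 genes of cortical inhibitory neurons, 9 were higher and 1 lower.

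The list did not set mPFC apart from ACC. None of the 8 excitatory genes passed the edgeR quasi-likelihood test between mPFC and ACC, and their median there was -0.25 against 0.01 over all genes. Tbr1, a transcription factor of deep-layer and early-born neurons, was higher than the mean of the others by 2.22 (SE 0.20) but differed from ACC by -0.36 (SE 0.29, adjusted p = 0.478). The number of genes that differed was 652 higher (4.06% of all tested) and 875 lower (5.45%) against ACC. Against DMT it was 5630 higher and 5687 lower. The plot of list medians shows both contrasts side by side.

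**Figure D1:**
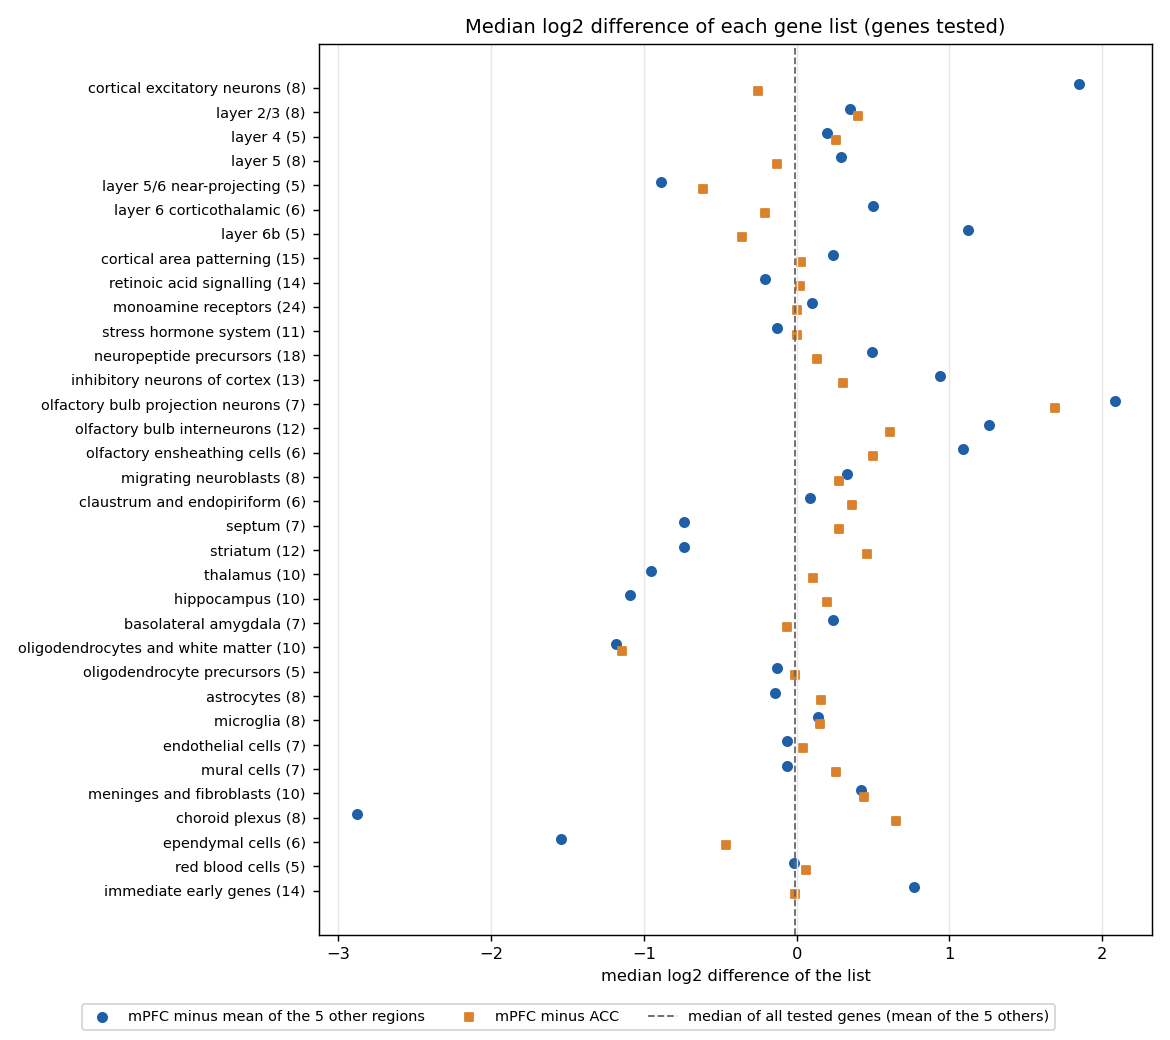
Median log2 difference of each of 34 gene lists (number of tested genes in parentheses) for mPFC minus the mean of the 5 other regions (blue circles) and mPFC minus ACC (orange squares). The cortical excitatory list lies at 1.85 in the first contrast and at -0.25 in the second, whereas the oligodendrocyte list lies at -1.18 and -1.14.

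Few genes were higher in mPFC than in every one of the 5 regions. Only 67 of 16066 genes (0.417%) passed the edgeR quasi-likelihood test upward against each region, and 27 of these were above all 5 other libraries of the same mouse in 7 of 7 mice. By the naming rule the leading genes were Adam33, Cdhr1, Atp6ap1l, Sp8, Myh8, Eya4, Stard8, Ptprt, Rnf144b, Slc9a9, Nrip1 and Cdh13. Cdhr1 and Sp8 differed greatly between mice and are taken up with the olfactory bulb genes. Leaving out whole animals brought the count of 67 to 32 without animal 41, 39 without animal 81 and 29 without animal 97. It rose to 127 when the Nacc libraries were left out.

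Adam33, a membrane-anchored metalloprotease, showed the largest difference of the genes whose mPFC libraries did not overlap with the others. It read 5.64, 9.44, 6.55, 15.8, 8.02, 12.7 and 14.5 CPM in the mPFC of the 7 animals in numerical order, and 1.39 to 4.14 CPM in ACC. No library of any other region exceeded 4.34 CPM, so the groups did not overlap. That highest value came from the Nacc of animal 65, a library that also held olfactory bulb genes, and the other 6 Nacc libraries read 0.374 to 1.13 CPM. Across the 7 mPFC libraries Adam33 correlated at 0.6 with the bulb gene Eomes, as a description. The difference was 3.74 (SE 0.20, adjusted p = 1.6e-16) from the mean of the others and 1.93 (SE 0.29, adjusted p = 5.4e-05) from ACC by edgeR's quasi-likelihood test. Atp6ap1l, whose product resembles an accessory subunit of the proton-pumping V-ATPase, was almost constant across mice at 14.3 to 18.7 CPM (median 15.8). Its highest level in the 35 other libraries was 9.39 CPM, and the differences were 2.51 (SE 0.17) from the mean and 1.41 (SE 0.25, adjusted p = 3.35e-04) from ACC.

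Eya4, a transcriptional coactivator and phosphatase of the eyes-absent family, read 6.71 to 10.5 CPM in mPFC (median 7.24) and at most 6.64 CPM elsewhere. Eya4 is also a member of the olfactory bulb interneuron list used further on. The margin between the groups was narrow, and the difference from ACC was 0.69 (SE 0.18, adjusted p = 0.013, edgeR). Ptprt, a receptor tyrosine phosphatase with roles in neuronal adhesion, read 306 to 399 CPM in mPFC and 247 to 303 CPM in ACC. Its difference from ACC was 0.38 (SE 0.08, adjusted p = 0.00346). Nrip1, a corepressor of nuclear receptors including those for steroid hormones, read 68.8 to 88.1 CPM in mPFC and 46.4 to 54 CPM in ACC, with a difference of 0.66 (SE 0.07, adjusted p = 4.9e-07). Nrip1 kept a clear gap between the 2 cortical regions, whereas for Ptprt and Eya4 the difference from ACC was no wider than the range within a region.

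Stard8, a GTPase-activating protein with a lipid-transfer domain, read 25.8 to 61 CPM in mPFC (median 42.2) and was 0.59 (SE 0.17, adjusted p = 0.0238, edgeR) above ACC. Cdh13, the lipid-anchored T-cadherin, ran up to 207 CPM (median 174) and was 0.39 (SE 0.10) above ACC. Its lowest values, from animals 41 and 65, lay within the ACC range, which reached 159 CPM. Among the 12 named genes, Adam33, Cdhr1, Atp6ap1l, Ptprt and Nrip1 kept their call against ACC when any 1 animal was left out. Stard8 lost it without animal 41, 81 or 97 (0.53, 0.62 and 0.53), Cdh13 without animal 33 or 81 (0.35 and 0.36), and Eya4 without animal 97 (0.64). Rnf144b, an E3 ubiquitin ligase, and Slc9a9, an endosomal sodium-proton exchanger, were above ACC by 0.30 (SE 0.08) and 0.31 (SE 0.09). Rnf144b lost its call without animal 97 (0.27) and Slc9a9 without animal 1, 41, 81 or 97 (0.27 to 0.32). Myh8, a myosin heavy chain best known from perinatal muscle, read only 4.09 to 6.49 CPM and lost its call against ACC without animal 1, 33, 41, 81 or 97 (0.52 to 0.64). Sp8 lost its call without animal 1, 9, 41 or 97 (0.77 to 1.16).

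In 7 of the 67 genes all mPFC libraries lay above all 35 others, as they did in 0.056% of all tested genes (9 genes). They were Adam33, Atp6ap1l, Eya4, Ptprt, Nrip1, Pth2r and Ntrk2, and the last 2 were named after their values were seen. Pth2r, a receptor for the peptide TIP39, read 2.08 to 4.58 CPM against at most 2.01 CPM elsewhere. Ntrk2, the receptor for brain-derived neurotrophic factor, read 800 to 858 CPM against 563 to 791 CPM. Its difference from the mean of the others was only 0.24, and its call against ACC (0.12) was lost without animal 1, 33, 41, 81 or 97.

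**Figure D2:**
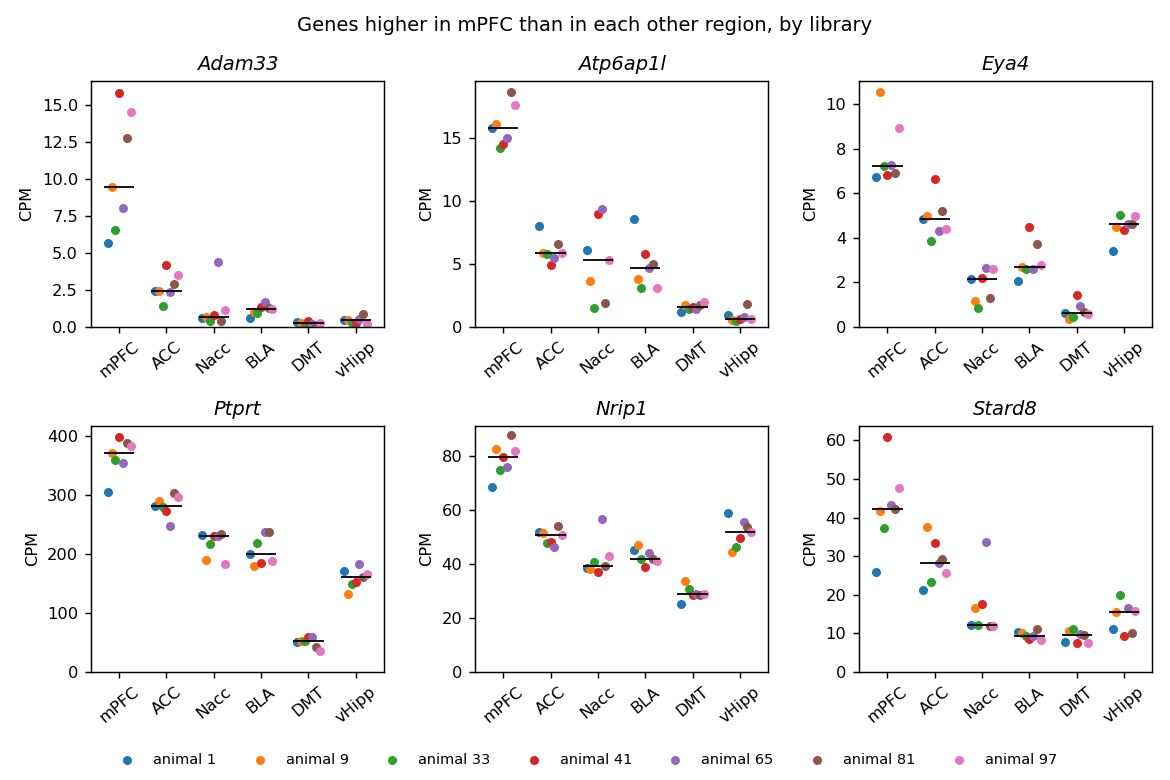
CPM of 6 genes in every library of the 6 regions, with 1 point per animal (colours) and the median as a black line. In Adam33, Atp6ap1l, Eya4, Ptprt and Nrip1 the 7 mPFC points lie above all other points, whereas Stard8 overlaps with ACC and Nacc.

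The same comparison was made in the 6 control mice labelled for social interaction (Ctrl_Vehicle_SocialInteraction), whose libraries had no part in choosing these genes. In this set the Nacc library labelled animal 17 matched animal 81 of the first set. That labelled animal 89 matched animal 39 (ELA_SAFit2_NoInteraction). The Nacc library labelled animal 1 in the first set matched animal 89. By this check the sets were not fully separate in Nacc. Of the 67 genes, 62 could be tested in the SocialInteraction mice, and 27 were again higher than in each of the 5 regions, where 0.358% of all tested genes were. All 62 had a positive difference from the mean of the others and 57 passed that test. Adam33 differed by 3.51, Atp6ap1l by 2.47, Eya4 by 1.54, Ptprt by 1.24 and Nrip1 by 0.91, each close to its first value. Myh8 and Sp8 kept positive differences of 2.09 and 1.88 from the mean but did not pass against ACC (adjusted p = 0.0718 and 0.192, edgeR). Of the genes lower in mPFC than in each region, 61 of 165 were called again, where 0.572% of all tested genes were.

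**Figure D3:**
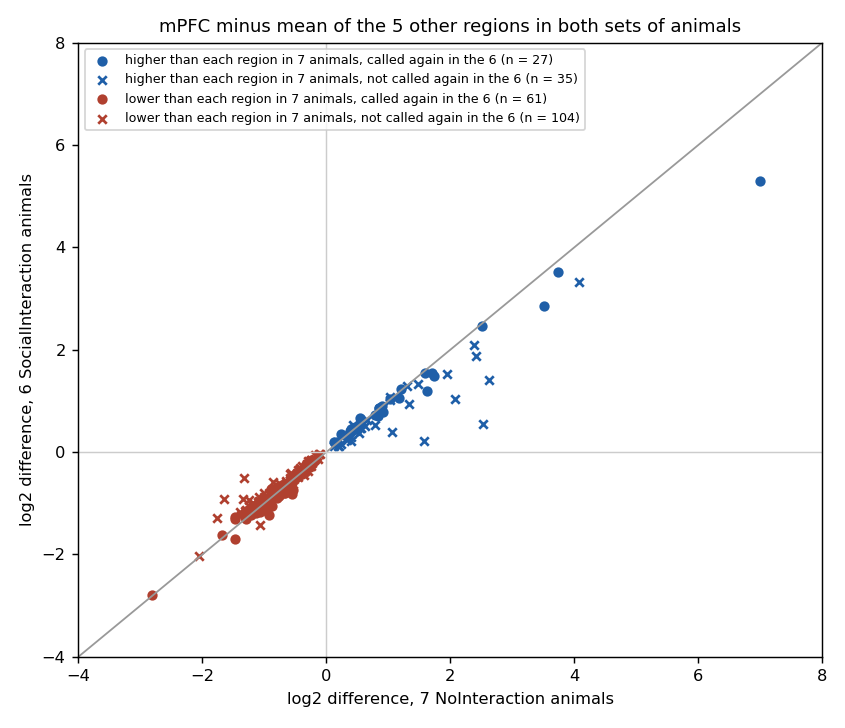
Log2 difference of mPFC from the mean of the 5 other regions in the 7 animals (x axis) and in the 6 SocialInteraction animals (y axis) for genes that were higher (blue) or lower (red) than in each region. Filled circles mark the 27 and 61 genes that were called again, and the grey diagonal marks equal values.

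Genes of olfactory bulb neurons stood among the highest differences, and they did so in some mice only. Of 7 genes of bulb projection neurons (mitral and tufted cells), 5 were higher in mPFC than in the mean of the others and 3 higher than in each region (Eomes, Cdhr1 and Doc2g). Their median difference was 2.08. Of 12 genes of bulb interneurons, 9 were higher and none lower. Over all tested genes 26.6% were higher and 26.6% lower than the mean, and 0.417% were higher than each region. Slc17a6, a vesicular glutamate transporter that the thalamus also uses, was the 1 projection list member that was lower (-1.03, SE 0.17).

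Eomes, the T-box factor of mitral and tufted cells, read 0.226, 0.0592 and 0.189 CPM in the mPFC of animals 1, 9 and 33. It read 25.1, 24.6, 8.83 and 3.17 CPM in animals 41, 65, 81 and 97. Doc2g, a calcium-sensor-like protein of the bulb, read 2.61, 2.25 and 2.36 CPM in the first 3 and 40.2, 58.6, 25.7 and 11.4 CPM in the other 4. Both genes thus split the mice in the same way. Cdhr1, a cadherin-related protein of mitral cells and photoreceptors, read 15.1, 13.3 and 9.19 against 90.7, 131, 65.5 and 28.2 CPM, and was above all other libraries of its own mouse in 7 of 7 mice. The fitted differences from the mean were 4.08 (SE 0.57, adjusted p = 2.94e-07) for Eomes, 2.08 (SE 0.33) for Doc2g and 3.51 (SE 0.30) for Cdhr1, and each of them averages over this split.

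The interneuron genes followed the same order. Th, which makes dopamine in periglomerular cells, read 1.83 to 3.48 CPM in animals 1, 9 and 33 and 28.8, 31.5, 9.08 and 6.48 CPM in animals 41, 65, 81 and 97. Sp8, a transcription factor of these cells, read 1.66 to 3.55 CPM and then 9.05, 15.2, 5.16 and 4.81 CPM. Calb2 (calretinin) read 11.7 to 22.3 CPM and then 71.4, 85.8, 45.3 and 31.9 CPM. Ms4a15, whose product belongs to the MS4A membrane family, read at most 0.0645 CPM in the first 3 mice and 8.99, 17.5, 5.89 and 2.49 CPM in the others. Genes of olfactory sensory neurons were narrower still. Omp, olfactory marker protein, reached 15.5 CPM in animal 41 and 6.92 CPM in animal 65, with at most 0.346 CPM in the remaining mPFC libraries. S100a5 reached 7.1 and 4.56 CPM in these 2 animals and at most 0.242 CPM in the remaining ones. Ms4a15, Omp and S100a5 were named after their values were seen.

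Bulb genes were also detected in other punches of 2 of these mice. Eomes read 9.63 CPM in the Nacc and 3.29 CPM in the DMT of animal 65, and 4.51 CPM in the ACC of animal 81. Doc2g read 26 CPM in this Nacc library and 16.9 CPM in this ACC library, but 2.53 CPM in the DMT library, within the DMT range of 1.94 to 2.84 CPM. Tbx21 was at 0 CPM in that DMT library. In every remaining library outside mPFC, Eomes was at or below 1.29 CPM. In the 34 mPFC libraries of the other conditions it ran from 0 to 38.4 CPM (median 0.329), and 11 of 34 exceeded 1 CPM.

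When the mPFC libraries of animals 41, 65, 81 and 97 were left out, 1 of 7 projection neuron genes and 6 of 12 interneuron genes remained higher than the mean of the others, with 3 mPFC libraries left. Over all tested genes 3318 were then higher than this mean, against 4277 with all libraries. Doc2g then differed by -0.19 from the mean and Th by -0.08 from ACC. The count higher than each region fell from 67 to 7, namely Adam33, Atp6ap1l, Eya4, Nrip1, Cdh13, Pth2r and Klhl41, all of which were among the 67. Adam33 then differed from the mean by 3.68, Atp6ap1l by 2.62 and Eya4 kept its call. Th lost its call against ACC when animal 41, 65 or 97 was left out (1.19, 1.29 and 1.61). The part of the number of mice in this fall was not tested.

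Other neighbouring tissue appeared in single mPFC libraries. Striatal genes were high in animal 1 alone. The summed level of 12 striatal genes was 1147 CPM there and 247 to 300 CPM in the other 6 mPFC libraries, against 249 to 494 CPM in ACC and 4023 to 6499 CPM in Nacc. Drd2, the dopamine receptor of indirect-pathway neurons, read 30 CPM in animal 1 and 0.851 to 2.27 CPM in the other 6. Adora2a, the adenosine receptor of the same neurons, read 46.5 CPM against 1.15 to 3.14 CPM. Of the 12 genes, 6 were lower in mPFC than in the mean of the others, where 26.6% of all tested genes were lower. When the mPFC library of animal 1 was left out, 11 of the 12 were lower. The count was 1 without the Nacc libraries. BLA, which stayed in that comparison, held 804 to 3186 CPM of the list. The cause of the lower count was not tested.

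Genes of the meninges and fibroblasts were highest in animal 41. Their summed level was 1628 CPM there and 78.1 to 426 CPM in the other 6. Ptgds, the prostaglandin D synthase of the leptomeninges, read 1251 CPM in animal 41 and 47 to 317 CPM in the rest. Slc47a1, an organic cation exporter of the arachnoid, read 11.2 CPM against 0.0888 to 1.23 CPM, and Igf2, a growth factor made by meningeal cells, 203 CPM against 13.4 to 57.9 CPM. The same mPFC library was low in deep-layer and high in superficial-layer genes. Its 6 corticothalamic layer 6 genes summed to 173 CPM against 336 to 474 CPM in the other 6, and its 8 layer 2/3 genes to 1619 CPM against 830 to 1231 CPM. Of 10 meningeal genes, 4 were higher in mPFC than in the mean of the others and 0 than in ACC, where 26.6% and 4.06% of all tested genes were. Without animal 41, Ptgds differed from the mean by 0.49 (adjusted p = 0.217, edgeR) and Slc47a1 by 0.85 (adjusted p = 0.219), where both had passed with it (0.99 and 2.13). Ptgds also lost its call without animal 97 (0.88, adjusted p = 0.0505).

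The summed level of the claustrum list did not single out any mouse, at 157 to 239 CPM in mPFC. Of its 6 tested genes, 2 were higher than the mean of the others (Gnb4 at 0.28 and Car3 at 1.57) and 1 was lower. Over all tested genes 26.6% were higher and 26.6% lower. Single members differed between mice. Nr4a2, an orphan nuclear receptor of claustrum and layer 6b neurons, read 31.9 and 32 CPM in the mPFC of animals 1 and 9 and 6.66 to 11.4 CPM in the other 5. Oprk1, the kappa opioid receptor, read 19.4 and 12.7 CPM in these 2 and 2.79 to 6.45 CPM in the other 5. Neither gene was higher in mPFC than in the mean of the others, and Oprk1 was lower (-1.12, SE 0.23, adjusted p = 1.46e-04, edgeR).

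Tissue of the ventricles was near absent. The 8 choroid plexus genes summed to 2.99 to 11.7 CPM in mPFC against 29.3 to 4672 CPM in BLA, and 5 of the 8 were under 0.5 CPM in all 7 mPFC libraries. Ttr, which dominates choroid plexus RNA, read at most 0.213 CPM. In the thalamic and in the hippocampal list 7 of 10 genes were lower than the mean and 2 higher, namely Ramp3 and Cdhr1 in the first and Lct and Neurod1 in the second. Over all tested genes 26.6% were lower than the mean and 26.6% higher. The 7 septal genes included 6 that were lower and 0 that were higher than the mean, and 0 passed against ACC. Their summed level was 674 to 797 CPM in DMT and 39.1 to 60.7 CPM in ACC. In mPFC it ran from 32.4 to 90.2 CPM, and was above the ACC range in animals 41 (90.2 CPM) and 65 (65.8 CPM).

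**Figure D4:**
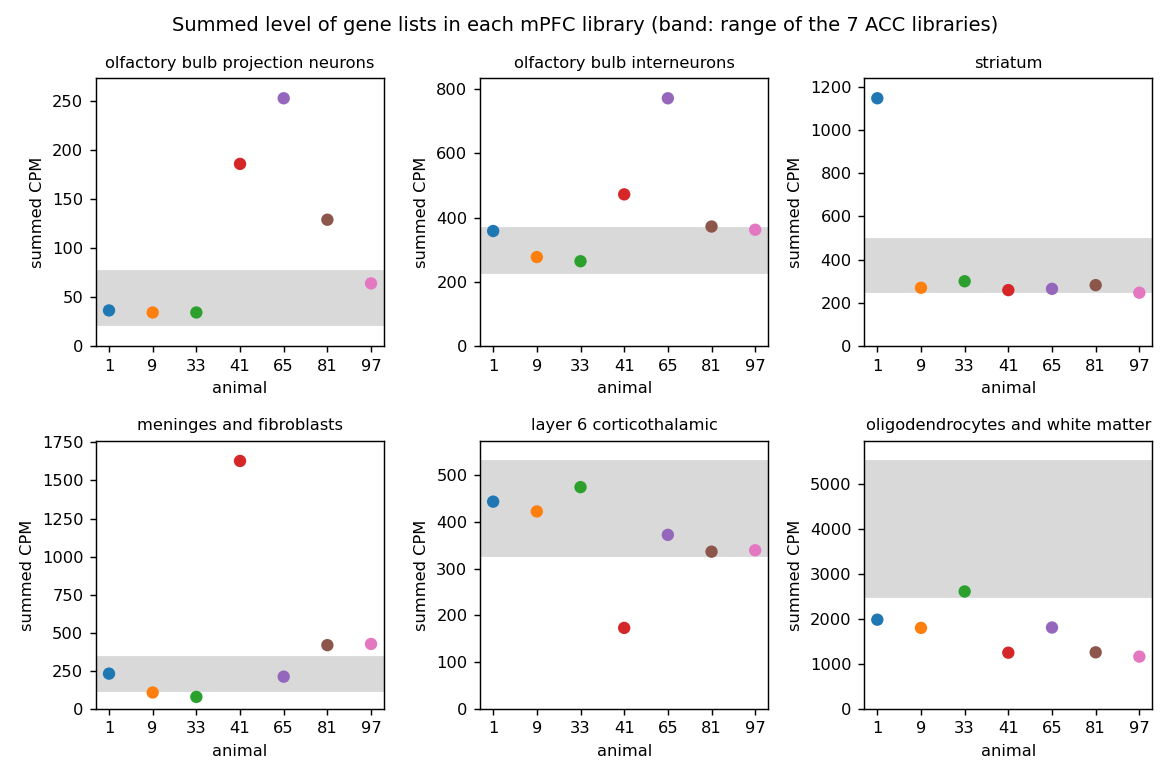
Summed CPM of 6 gene lists in the 7 mPFC libraries (1 point per animal), with the range of the 7 ACC libraries as a grey band and axes from 0. Animals 41, 65 and 81 lie above the band in the projection neuron panel, animal 1 does so in the striatal panel, and animal 41 is highest for meninges and lowest for layer 6.

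Myelin genes were lower in mPFC than anywhere else. All 10 genes of the oligodendrocyte and white matter list were lower than in the mean of the others, and all 10 were lower than in each of the 5 regions, as 1.03% of all tested genes were (165 genes). Oligodendrocytes wrap axons in myelin, and in frontal cortex they are dense in the callosal forceps and sparse in upper layers. The summed level of the list was 1159 to 2606 CPM in mPFC (median 1797), 2493 to 5505 CPM in ACC and 5404 to 6573 CPM in DMT. The median difference was -1.18 from the mean of the others and -1.14 from ACC.

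Mbp, the myelin basic protein, read 843, 800, 1112, 538, 792, 530 and 486 CPM in the mPFC of the 7 animals in numerical order. It read 1085 to 2302 CPM in ACC, and mPFC was below the ACC library in 7 of 7 mice. The difference from ACC was -1.04 (SE 0.17, adjusted p = 1.6e-04, edgeR's quasi-likelihood test). Mobp, another compact myelin protein, read 96.1 to 257 CPM (median 172) in mPFC and 248 to 581 CPM in ACC. Mag, which holds the inner myelin turn to the axon, read 35.6 to 82.6 CPM against 80.4 to 184 CPM. Animal 33 was the highest in mPFC for all 3 genes and touched the low end of ACC, whereas animals 41, 81 and 97 were the lowest.

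The upstream sequence of Mobp and Mag is shown because these genes, like the oligodendrocyte factors Myrf and Sox10, were lower in mPFC than in each region. Whether these factors have a part in the lower levels was not tested. Sequences are the 250 bases before the first listed RefSeq start in the build GRCm38.p6, read 5′ to 3′ on the gene's strand, at chr9:120149492-120149741 (plus strand) for Mobp and chr7:30914864-30915113 (minus strand) for Mag. Capitals mark ACAAAG or its reverse complement CTTTGT, the core bound by SOX factors such as Sox10, and CTGGCAC or its reverse complement, a form of the site bound by Myrf. The motifs do not overlap.
Mobp: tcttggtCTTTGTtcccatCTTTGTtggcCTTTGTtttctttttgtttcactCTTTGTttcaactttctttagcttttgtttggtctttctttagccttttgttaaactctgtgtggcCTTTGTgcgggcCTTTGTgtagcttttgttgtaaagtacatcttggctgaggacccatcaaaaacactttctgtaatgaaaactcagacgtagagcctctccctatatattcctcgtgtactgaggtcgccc
Mag: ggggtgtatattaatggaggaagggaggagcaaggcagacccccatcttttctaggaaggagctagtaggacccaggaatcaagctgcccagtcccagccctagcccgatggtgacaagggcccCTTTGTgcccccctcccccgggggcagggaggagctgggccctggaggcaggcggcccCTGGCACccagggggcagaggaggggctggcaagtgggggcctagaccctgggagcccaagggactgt
Mobp held 6 copies of the SOX core and Mag held 1, and Mag also held 1 Myrf form. Over 27025 promoters of the same length 16.5% held the SOX core and 4.14% this Myrf form. Of the 8 oligodendrocyte genes whose promoters were among these, 4 and 2 did. Only 1 of the 27025 promoters held 6 or more SOX cores, that of Mobp, so the sequence shown is an extreme and not typical of the list. Promoters of 1 chromosome were left out of these counts. A match of letters is a description and not a binding site.

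Of the genes that regulate this lineage, Myrf, the transcription factor that starts myelination, read 14 to 31.8 CPM in mPFC and 29.7 to 70 CPM in ACC. Its difference from ACC was -1.07 (SE 0.16, adjusted p = 6.2e-05, edgeR) and it was below every other library of the same mouse in 7 of 7 mice. Sox10 read 18.7 to 24.4 CPM and differed from ACC by -0.51 (SE 0.10). St18, a zinc-finger factor present in oligodendrocytes and in some neurons, differed from the mean by -2.05 (SE 0.22). Its difference from ACC (-0.89) lost its call when animal 1, 41, 65, 81 or 97 was left out. The other leading decreases were Ppp1r14a (-1.48), Adamtsl4 (-1.39), Gpr37 (-1.18), an orphan receptor of oligodendrocytes, S1pr5 (-1.10), their sphingosine-1-phosphate receptor, and Plekhg3 (-1.07). Ppp1r14a and Adamtsl4 were among the 10 of 165 genes whose mPFC libraries all lay below all 35 others, as 0.0622% of all tested genes did. Precursor cells differed less, with 3 of 5 genes lower than the mean and 1 lower than ACC. Over all tested genes 26.6% were lower than the mean and 5.45% lower than ACC.

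Onecut2 stood apart from this lineage. It encodes a homeodomain factor of neurons, read 4.37 to 7.99 CPM in mPFC and 11 to 12.4 CPM in ACC, and was below all other libraries of its mouse in 7 of 7 mice. Its difference was -1.29 (SE 0.11) from the mean and -0.94 (SE 0.13, adjusted p = 2.45e-05, edgeR) from ACC. In the 6 SocialInteraction mice the values were -1.31 and -0.95.

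**Figure D5:**
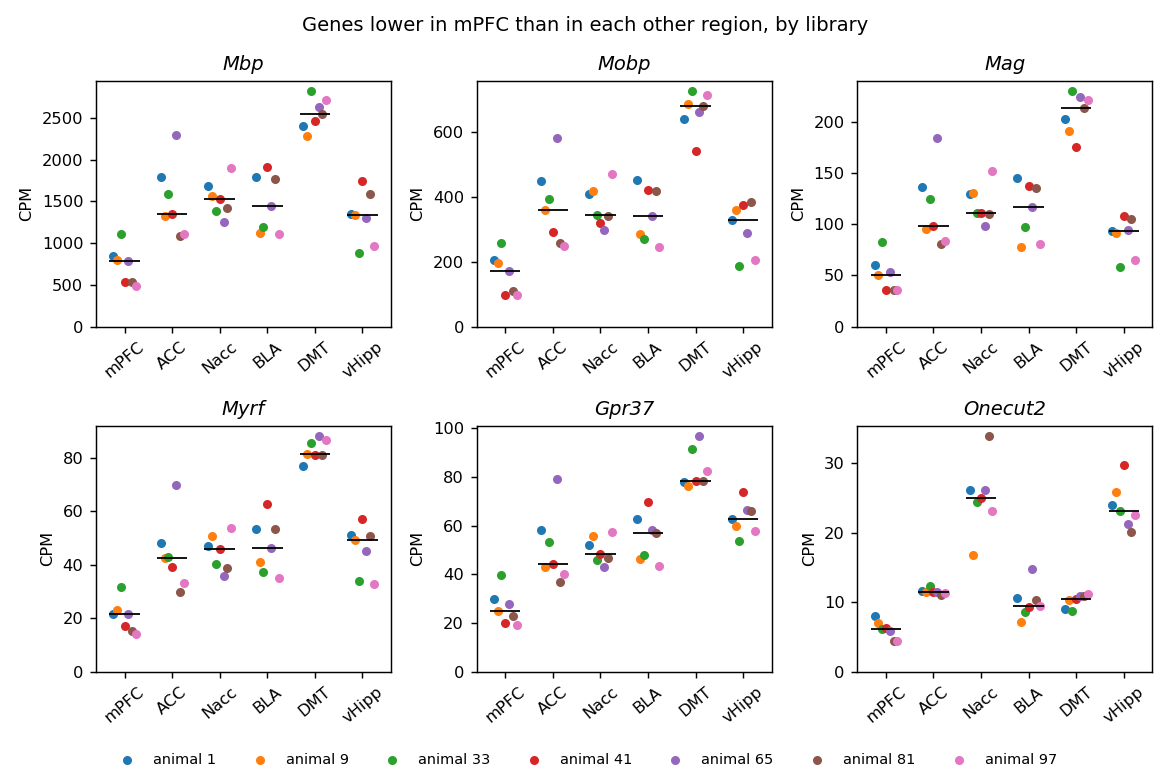
CPM of 6 genes in every library of the 6 regions, with 1 point per animal (colours) and the median as a black line. In all 6 panels the mPFC median is the lowest of the 6 regions, at 792 CPM for Mbp and 6.14 CPM for Onecut2.

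The myelin result held across mice but rested partly on the same libraries as the olfactory one. The list summed to 1246, 1254 and 1159 CPM in animals 41, 81 and 97, and to 1979, 1797, 2606 and 1805 CPM in animals 1, 9, 33 and 65. With the mPFC libraries of animals 41, 65, 81 and 97 left out, 10 of 10 genes were still lower than the mean of the others, and 0 of 10 passed against ACC. The count lower than each region then fell from 165 to 11. Leaving out any 1 animal kept 10 of 10 in both contrasts.

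Against ACC alone, 652 genes (4.06%) were higher and 875 (5.45%) lower in mPFC. Of these, 478 and 705 had the same sign in 7 of 7 mice. The counts were sensitive to single mice. Without animal 41 they were 301 and 541, without animal 97 they were 329 and 562, without animal 1 they were 358 and 519, and without animal 81 they were 398 and 468. With the mPFC libraries of animals 41, 65, 81 and 97 left out they were 47 and 43.

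Genes of the superficial layers were among those higher than in ACC. Of 8 layer 2/3 genes, 5 were higher than in ACC and none lower, with a median of 0.40. Leaving out 1 mouse reduced the 5 to 1 (animal 41), 2 (animal 33, 81 or 97) or 3 (animal 65), and 1 remained without the mPFC libraries of animals 41, 65, 81 and 97. Calb1 (calbindin, a calcium buffer of layer 2/3 neurons) ran from under 104 CPM in animal 65 over a median of 168 CPM to 235 CPM in animal 41, and from 71.2 to 104 CPM in ACC. The difference was 0.91 (SE 0.16, adjusted p = 2.36e-04, edgeR). Cux2, the homeobox factor of upper layers, was higher by 0.42 (SE 0.14), Rasgrf2, a Ras exchange factor of layer 2/3, by 0.53 (SE 0.16), and Rorb, the nuclear receptor of layer 4, by 0.56 (SE 0.11). Calb1 and Rorb kept their calls when any 1 animal was left out. Cux2 lost its call without animal 33, 41, 65, 81 or 97, and Rasgrf2 without animal 33, 41, 81 or 97. Cux2 was highest in animal 41 at 219 CPM, the library that also led in meningeal genes.

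Few genes of the deep-layer lists differed from ACC, as few did over all tested genes (4.06% higher and 5.45% lower). None of 6 corticothalamic layer 6 genes and none of 5 layer 6b genes passed the test. Deptor, an mTOR inhibitor of layer 5 neurons, was lower (-0.69, SE 0.12, adjusted p = 3.88e-04, edgeR), and so was Lypd1, a modulator of nicotinic receptors (-0.98, SE 0.12, adjusted p = 7.1e-06). Lypd1 read 49.9 to 92.4 CPM in the mPFC of 6 mice, was higher in animal 1, and read 132 to 178 CPM in ACC, with no overlap. Both were below the ACC library in 7 of 7 mice.

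By the naming rule the largest increases against ACC were Fam177a2, Cdhr1, Ndst4, Adam33, Th and Calb2, and the largest decreases Pappa2, Fam177a, Met, Drd5, Vwa5b1 and Opalin. Cdhr1, Th and Calb2 are bulb genes described above. Ndst4, a heparan sulfate sulfotransferase, read 71.3 CPM in animal 1 and 2.11 to 27.1 CPM in the other 6. Without the mPFC library of animal 1 its difference of 2.06 became 1.22 and no longer passed, and without animal 41 it was 1.92 and did not pass (adjusted p = 0.0773, edgeR). Fam177a2 and Fam177a are near-identical copies and shifted in opposite directions (3.32 and -2.88), so their split is uncertain. Fam177a2 lost its call when animal 1, 41, 65 or 81 was left out, at 2.88 to 3.08. In the 6 SocialInteraction mice these copies differed by 0.15 and -0.23.

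Pappa2, a protease that frees insulin-like growth factors from their binding proteins, read 0.614 to 3.22 CPM in mPFC and 9.22 to 15.8 CPM in ACC. The groups did not overlap, and the difference was -3.10 (SE 0.39, adjusted p = 6.9e-06, edgeR). In the SocialInteraction mice it was -2.94. Met, the receptor of hepatocyte growth factor, read 2.84 to 4.95 CPM against 7.92 to 17.7 CPM, a difference of -1.64 (SE 0.29, adjusted p = 2.82e-04), and -1.43 in the SocialInteraction mice. Drd5, the D5 dopamine receptor, differed by -1.36 (SE 0.27) with values of 0.858 to 4.48 CPM that overlapped with 1.74 to 8.46 CPM in ACC.

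Monoamine receptors differed in both directions. Of 24 genes, 10 were higher and 9 lower than the mean of the others, where 26.6% of all tested genes were higher and 26.6% lower. Against ACC 1 was higher and 4 lower, where 4.06% of all tested genes were higher and 5.45% lower. Htr1a, the inhibitory serotonin receptor, read 30.7 to 39.6 CPM in mPFC and 20.3 to 26.3 CPM in ACC, and was the receptor that was higher in both contrasts (1.87, SE 0.11, from the mean and 0.61, SE 0.14, adjusted p = 0.00524, from ACC, edgeR). Htr2a, the excitatory receptor of pyramidal neurons, was 1.25 (SE 0.08) above the mean but -0.35 (SE 0.11, adjusted p = 0.0417) from ACC. The latter call was lost without animal 1, 9, 41, 81 or 97 (-0.38 to -0.30), and in the 6 SocialInteraction mice the difference was -0.17 (adjusted p = 0.462, edgeR). Adra1a and Adra1b, both alpha-1 adrenergic receptors, differed in pattern. Adra1a was 0.98 (SE 0.06) above the mean and 0.04 (SE 0.08) from ACC, whereas Adra1b read 9.99 to 17.9 CPM against 24.2 to 31.4 CPM in ACC (-0.91, SE 0.17, adjusted p = 5.77e-04).

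Of 11 genes of the stress hormone system, 2 were higher and 7 lower in mPFC than in the mean of the 5 others by edgeR's quasi-likelihood test, and 0 passed against ACC. Over all tested genes 26.6% were higher and 26.6% lower than the mean, and 4.06% and 5.45% than ACC. The summed level of the 11 genes was 367 to 400 CPM in mPFC, 377 to 412 CPM in Nacc and 549 to 583 CPM in vHipp. The glucocorticoid receptor gene Nr3c1 read 104 to 124 CPM and differed by 0.07 (SE 0.04, adjusted p = 0.117). Nr3c2, the mineralocorticoid receptor, and Fkbp5, the cochaperone that SAFit2 inhibits as protein, were lower, at -0.72 (SE 0.10) and -0.48 (SE 0.06). Crhr1, the receptor of corticotropin-releasing hormone, and Crhbp, which binds the hormone, were higher by 1.14 (SE 0.11) and 1.22 (SE 0.19).

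Immediate early genes, which neurons switch on with activity, were higher in mPFC than in the mean of the others for 13 of 14 members, with a median of 0.77. None passed the test against ACC, where 4.06% of all tested genes were higher and 5.45% lower. Egr2 and Npas4 were higher by 1.78 (SE 0.24) and 1.01 (SE 0.10). The summed level was 1210 CPM in animal 41 and 435 to 694 CPM in the other 6 mPFC libraries. Of 8 microglial genes, 5 were higher than the mean of the others and 0 lower, with a median of 0.14, and 0 passed against ACC. Cx3cr1 and P2ry12, receptors of resting microglia, were higher by 0.18 (SE 0.04) and 0.21 (SE 0.05). Of 8 astrocyte genes 1 was higher (Slc1a2, a glutamate transporter, at 0.16) and 3 were lower, among them Agt, the angiotensin precursor, at -2.67 (SE 0.24). Of 7 endothelial and 7 mural genes, 0 were higher and 1 and 2 were lower. For all these lists, the share over all tested genes was 26.6% higher and 26.6% lower than the mean of the others.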

How the data were processed

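RNA-seq was done on punches of 6 brain regions from 41 mice, and 42 of the 246 libraries were used for the main comparison. The authors deposited a table of estimated counts per gene for 56691 genes, made with salmon as the table's name gives. STAR, DESeq2 and the builds GRCm39 and mm39 are named in the submitters' processing notes; the version of salmon and the annotation release are not given in the sources used here. Since 12.1% of the deposited estimated counts were not whole, they were rounded. Reads shared by near-identical copies are split by estimation, which makes such genes uncertain.

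The fit kept protein-coding genes detected in 6 or more libraries whose counts added up to 100 or more. They were scaled with TMM and fitted in edgeR 4.0.16 (R 4.3.3) with region and animal, and each contrast was tested with the quasi-likelihood F test and called at an adjusted p under 0.05. The mean of the other regions is a mean on the log scale. Nothing in the labels gives the libraries a technical repeat, so n is the number of mice. The animal number pairs the libraries, since they come from the same mouse. Deviations of same-animal libraries correlated at 0.161 on average and those of other animals at -0.0267. The fit was tested on simulated data.

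Named genes were the 12 highest against the mean among genes above each region in 7 of 7 animals at a mean of at least 5 CPM, the 8 lowest by the same rule, the 6 highest and 6 lowest against ACC with the same sign in 7 of 7 animals, and members of 34 gene lists. The members and lists were chosen with earlier results of these data known. Lists are described by counts and medians and were not tested. Alternatives were DESeq2 1.42.0, limma 3.58.1 on paired differences, other size factors, no filter, all gene types, no block, and leaving out libraries or animals. Promoter sequence is from RefSeq on GRCm38.p6, whereas the processing notes name GRCm39, and no coordinate was converted.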

Additional observations from a re-analysis of the deposited data

Results flagged for a closer look

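For 34 list sums and 51 named genes, the highest or lowest of the 7 mPFC libraries was tested for a gap to its nearest neighbour that is wide against the whole range. Of these 85 values 19 had such a gap. Chance gives about 1 in 20 groups, but the genes and lists were chosen with earlier results of these data known. The share with a gap therefore cannot be set against chance. The values are also not independent because list members are among the genes.

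The mPFC library of animal 41 stood apart in 10 of them. Its summed levels were lowest for layer 5 genes (370 CPM) and highest for astrocytes (4808 CPM), meninges and fibroblasts (1628 CPM), red blood cells (393 CPM) and immediate early genes (1210 CPM). Among single genes it was highest for Ptgds at 1251 CPM, Igf2 at 203 CPM, Slc47a1 at 11.2 CPM, Slc9a9 at 28.7 CPM and Vwa5b1 at 5.37 CPM.

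The mPFC library of animal 1 was highest for the summed levels of striatal genes (1147 CPM), basolateral amygdala genes (593 CPM) and monoamine receptors (399 CPM). It was also highest for Drd2 at 30 CPM, Adora2a at 46.5 CPM and Ndst4 at 71.3 CPM. Drd2 is a member of both the striatal and the receptor list, and Ppp1r1b of both the striatal and the amygdala list.

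The mPFC library of animal 65 was highest for olfactory bulb interneuron genes (771 CPM) and for Tbx21 (4.25 CPM), a T-box factor of mitral and tufted cells. The mPFC library of animal 33 was highest for Opalin (11.3 CPM), a membrane protein of myelinating oligodendrocytes. The causes were not tested.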

How the results depend on the processing

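Leaving out the mPFC libraries of animals 41, 65, 81 and 97, chosen after seeing the data, moved most counts. Genes lower than the mean went to 2805, higher than each region to 7, lower than each to 11, and higher and lower than ACC to 47 and 43. Differences then turned sign for Th against ACC (-0.08) and, against the mean, for Doc2g (-0.19), Tbx21 (-0.19), Ptgds (-0.33) and Omp (-0.73). Fewer mice remained, and the cause was not tested. Genes at least 2-fold higher or lower than the mean numbered 505 and 503. They numbered 189 and 1077 with limma, which averages the other regions arithmetically, and 803 were higher with all gene types. Without the Nacc libraries 127 genes were higher than each region.

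Leaving out 1 animal at a time gave 3983 to 4243 genes higher and 3695 to 3975 lower than the mean, 464 to 537 and 428 to 535 at 2-fold, 29 to 59 higher and 119 to 165 lower than each region, and 301 to 614 higher and 468 to 961 lower than ACC. Of the markers with at least a 2-fold difference, 7 to 11 were called again in the SocialInteraction animals, against 11 with all animals.

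Without the replicate block 4065 genes were higher and 3951 lower than the mean, 46 and 150 than each region, and 482 and 719 than ACC. DESeq2 gave 67 and 177 genes for each region. Single mice moved the counts higher than each region and those against ACC by over 1.5 times.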
